A study of Homo sapiens with 3 samples.

Results

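The HOX cluster genes described here are those that the deposited table lists as protein-coding, 36 of its 29960 genes, chosen by symbol alone (HOX, a cluster letter from A to D and a paralogue number). They fall into 4 clusters, with 11 genes in HOXA, 10 in HOXB, 6 in HOXC and 9 in HOXD. HOXC4, HOXC5 and HOXC12 were not analysed here. On hg19, the build named in the submitters' processing notes, the listed genes spanned chr17:46605888-46806540 for HOXB, chr12:54332535-54424607 for HOXC and chr2:176957619-177055688 for HOXD.

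HOX genes encode homeodomain transcription factors that give cells positional identity along the body axis. Within a cluster the order of the genes follows the order of their expression along that axis, low paralogue numbers anterior and high numbers posterior, and adult cells commonly keep part of this code. HOX proteins bind DNA with cofactors of the PBX, MEIS and PKNOX families. Polycomb complexes hold HOX clusters silent, Trithorax-type complexes keep them active, and retinoic acid, acting through RAR and RXR receptors, switches the anterior genes on.

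The cells were 5637, an established human bladder cancer line, grown in RPMI medium with serum and labelled as untreated when RNA was taken. Poly(A)-selected RNA of 3 labelled libraries was analysed: 1 of the parental line (genotype WT, here parental 1) and 2 of its gemcitabine-resistant derivative (here resistant 1 and resistant 2). Resistance had been acquired under gemcitabine, a deoxycytidine analogue that blocks DNA synthesis. The labels call that exposure acute, whereas the study's methods describe raising the dose in steps. By those methods each library is a single-cell clone, so a difference between groups cannot be told apart from a difference between clones wherever it is carried by the lone parental library.

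Library totals were 14475531 counts in parental 1, 15836788 in resistant 1 and 17461941 in resistant 2. A floor of 3 counts corresponded to 0.214, 0.184 and 0.172 CPM (counts scaled to a library total of 1000000, with TMM factors that correct for libraries of different composition), and intervals on counts cover counting error only. Of the labelled cell type, 13 of 15 epithelial and urothelial markers passed the count filter. The uroplakins were sparse, with UPK3A at 0 counts in each library, UPK2 at 3, 9 and 5 counts and UPK1B at 74, 0 and 0. PTPRC, a leukocyte marker, had 4, 3 and 2 counts and DES, a muscle marker, 0, 1 and 3. The summed level of the epithelial list was 10474 CPM in parental 1, 7690 in resistant 1 and 7878 in resistant 2, and 2 of its genes were called lower in the resistant libraries (UPK1B and KRT5, a basal keratin). In the same order, KRT7 had 1994, 1049 and 863 CPM, KRT8 2279, 1668 and 1009, and KRT19 4321, 3596 and 4761. EPCAM had 286, 338 and 290 CPM and CDH1 341, 398 and 319. Of the 13 tested genes of the list, 2 had estimates above 0 and 11 below. KRT5, KRT7, KRT8 and KRT18 lie within 5 Mb of HOXC, among the genes around that cluster described below. Whether their levels are part of that local difference was not tested. UPK1B passed the count filter through the parental library alone, and KRT5 had 3829, 160 and 240 counts. The authors' group means of normalized counts, parental and resistant, were 70.1 and 20.4 for UPK1B and 11544 and 2047 for KRT5. Those means cover other clones beside the labelled libraries. The other cell type list summed to between 66.7 and 116 CPM, nearly all of it COL1A1. Whether the difference in the summed epithelial list has a part in any HOX result was not tested.

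Of the 4 clusters, HOXA, HOXB and HOXD gave well-covered transcripts and HOXC lay at or near the floor. Of the 36 genes, 30 exceeded 3 counts in at least 1 library, and 27 passed the count filter of the test: 10 HOXA, 9 HOXB, 8 HOXD and 0 HOXC genes. HOXB1, HOXC13, HOXC11 and HOXC6 had 0 counts in every library, and HOXA13 and HOXC10 stayed at or under 3 counts. All HOX genes together took 7566 counts in parental 1, 8383 in resistant 1 and 12371 in resistant 2. That is 0.0523% of the library in parental 1 (exact binomial 95% interval 0.0511 to 0.0535), 0.0529% in resistant 1 (0.0518 to 0.0541) and 0.0708% in resistant 2 (0.0696 to 0.0721). Resistant 2 stood above the other libraries, which overlapped each other. Within the HOX counts, HOXB took the largest share in each library, 50.7%, 50.8% and 56.7% in the same order.

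**Figure D1:**
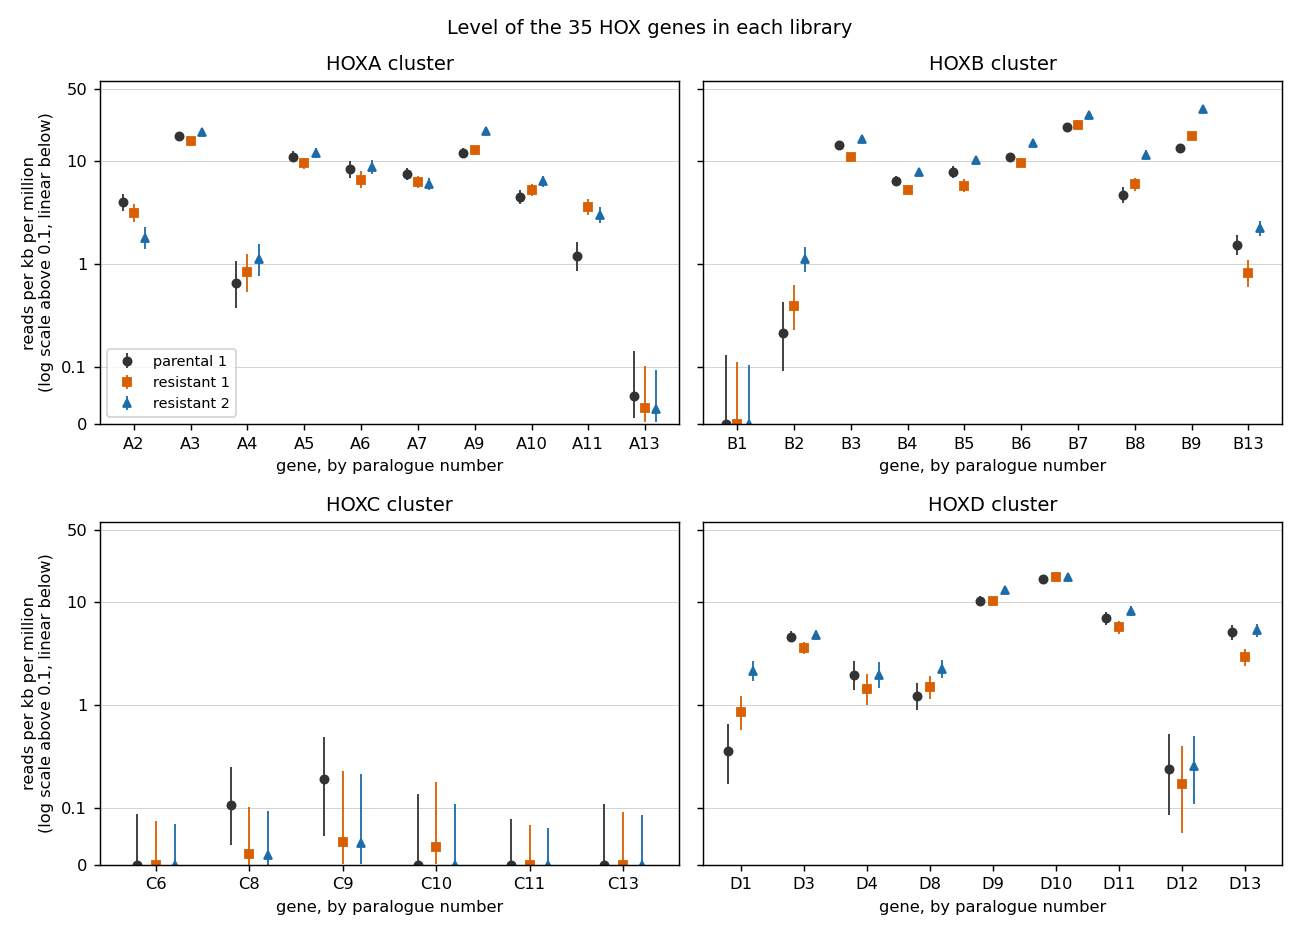
Level of 35 of the 36 HOX genes in RPKM, reads per kilobase scaled as CPM (vertical axis, log scale above 0.1 and linear below), in paralogue order, with 1 panel per cluster; points are the 3 libraries and bars are exact Poisson 95% intervals. HOXC genes lie at or near 0 in each library, whereas HOXA3, HOXA9, HOXB3, HOXB7, HOXB9, HOXD9 and HOXD10 lie above 10. HOXA11 and HOXD1 are among the genes with a parental point below both resistant points.

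Levels between genes are compared here per length, as RPKM (the TMM-scaled CPM divided by the deposited gene length in kilobases). In HOXA the level did not fall or climb steadily with position. HOXA3, a gene of the neck and thymus region, was the highest in parental 1 (17.4 RPKM, against 15.6 in resistant 1 and 19.3 in resistant 2). HOXA9, known for its role in blood progenitors together with MEIS1, had 12.0, 12.8 and 19.6 RPKM. HOXA4 was the lowest of the transcribed HOXA genes, at 0.652, 0.841 and 1.12 RPKM. HOXA13, the most posterior member and a gene of the hindgut, genital tubercle and distal limb, had only 3, 2 and 2 counts, so the transcribed part of the cluster ended at HOXA11.

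HOXB held the highest single levels. HOXB7, at 21.5, 22.3 and 28.3 RPKM, ranked first of all HOX genes in parental 1 and resistant 1. HOXB9, at 13.3, 17.7 and 32.4 RPKM, had ranks 5, 2 and 1. HOXB3 to HOXB6 lay between 5.30 and 16.5 RPKM. Toward the ends of the cluster the level dropped: HOXB2, a hindbrain gene, had 0.215, 0.393 and 1.12 RPKM, HOXB1 was at 0 counts, and HOXB13, a gene of the tail bud and the prostate, had 1.54, 0.813 and 2.21 RPKM.

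In HOXD the posterior genes HOXD9 and HOXD10 were highest. HOXD10 had 16.7, 17.5 and 17.4 RPKM and HOXD9 had 10.3, 10.2 and 12.9 RPKM. HOXD11 followed at 6.94, 5.65 and 8.16 RPKM, and HOXD13, a gene of the digits and the urogenital outlet, at 5.05, 2.90 and 5.27 RPKM. HOXD12, which lies between them, had 6, 5 and 8 counts and was not tested. HOXD13 was thus transcribed in each library and HOXA13, of the same paralogue group, was at the floor.

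The 6 listed HOXC genes gave 9, 3 and 2 counts in all. HOXC8 had 5, 1 and 1 counts and HOXC9 had 4, 1 and 1, which are the whole of the cluster's signal apart from 1 count of HOXC10 in resistant 1. The ratio of the summed HOXC level, resistant over parental, was 0.231 with a counting interval of 0.0608 to 0.768. This is a difference between a few reads, and no gene of the cluster passed the count filter of the test. The order of the HOX genes by level was much the same in each library: over the 30 genes above the floor, Spearman's rho of the RPKM was 0.964 between parental 1 and resistant 1, 0.954 between parental 1 and resistant 2 and 0.971 between the resistant libraries, a description over genes that share libraries, lengths and read overlaps.

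Many HOX genes overlap one another, which limits what a single count says. Spans of 25 of the 36 genes overlapped a gene on the opposite strand and 20 overlapped another gene on the same strand. HOXA4 and HOXA5 lay wholly within the span of HOXA3, HOXB4 and HOXB5 within that of HOXB3, HOXB8 and HOXB9 within that of HOXB7, and HOXD4 within that of HOXD3. The labels describe both a stranded and an unstranded library protocol, so reads of a HOX gene and of an overlapping antisense RNA cannot be told apart here.

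The resistant libraries were compared with the parental library by edgeR's quasi-likelihood test over all 15643 genes that passed the filter, with Benjamini-Hochberg adjustment. The spread was estimated with 1 residual degree of freedom, from the resistant libraries alone and shared across genes, and the parental library was assumed to vary like them. At an adjusted p under 0.05, edgeR called 0 of the 27 tested HOX genes, whereas it called 0.876% of all genes (137 genes, of which 46, or 0.294%, were higher and 91, or 0.582%, lower in the resistant libraries). With library totals in place of TMM factors the split over all genes was 100 higher and 128 lower. The 0.876% amounts to less than 1 gene in 27, so the count is near the background. At an unadjusted p under 0.05 there were 2 HOX genes, HOXA11 and HOXD1, against 9.70% of all genes, and the DESeq2 Wald test on the same counts also called 0.

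The fitted log2 fold changes of the 27 genes ran from -0.69 (HOXA2) to 2.09 (HOXD1), with a median of 0.07 beside 0.03 over all tested genes. Both resistant libraries lay above the parental one in 11 genes and below it in 2, and the parental library lay between them in 14. Over all tested genes, 34.7% had both resistant libraries above and 35.0% had both below. HOXB2, with 8 counts in parental 1, passed the filter through its resistant libraries, so these counts describe the tested genes and not whole clusters.

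**Figure D2:**
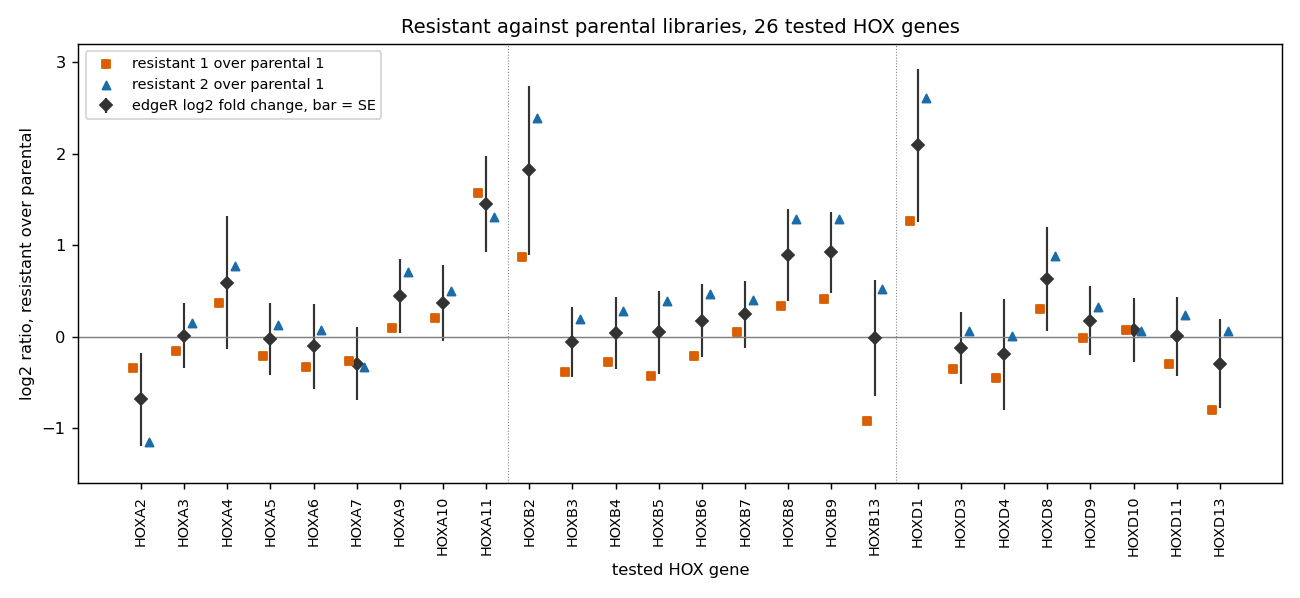
Log2 ratio of resistant over parental level for 26 of the 27 tested HOX genes, in paralogue order within HOXA, HOXB and HOXD (dotted lines divide the clusters); diamonds are edgeR estimates with bars of 1 SE, and squares and triangles are the 2 resistant libraries taken singly. HOXA11, HOXB2 and HOXD1 have estimates above 1, and most other estimates lie within 1 SE of 0.

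HOXA11, which patterns the limb, the kidney and the uterus, was the HOX gene with the lowest p. On hg19 it lies at chr7:27221129-27224842 on the minus strand (ENSG00000005073). Counts were 39 in parental 1, 135 in resistant 1 and 120 in resistant 2, or 2.78, 8.27 and 6.88 CPM. Both resistant libraries were above the parental library, and their counting intervals did not reach that of the parental library. The log2 fold change was 1.45 ± 0.53 (SE; edgeR adjusted p = 0.381). The authors' group means of normalized counts were 82.0 for parental and 121.6 for resistant cells, a log2 ratio of 0.56. These means carry no spread and cover other clones beside the labelled libraries, here and for each gene below, so the values are set side by side and are not a repeat of the same comparison.

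HOXD1 showed the largest estimate. It lies at chr2:177053307-177055688 on the plus strand of hg19 (ENSG00000128645), at the anterior end of its cluster, and is known from neural patterning. It had 10 counts in parental 1, 28 in resistant 1 and 76 in resistant 2, or 0.712, 1.71 and 4.35 CPM. The antisense RNA HOXD-AS1 overlaps 16.0% of the HOXD1 span, and reads of the 2 genes cannot be told apart there. The resistant libraries were both higher and also differed from each other, with resistant 2 at 2.54 times resistant 1 (counting interval 1.63 to 4.07). The log2 fold change was 2.09 ± 0.84 (edgeR adjusted p = 0.441), and the authors' means were 16.0 and 33.8, a log2 ratio of 1.04.

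The promoters of HOXA11 and HOXD1 are shown because these genes alone had an unadjusted p under 0.05, and that of HOXA13 because it lies beside HOXA11 and was near 0. Each is a window of 300 bases, most of it before a RefSeq start (GRCh38.p14, another build than the deposited table), written 5′ to 3′ on the strand of the gene, with CpG dinucleotides, the sites of DNA methylation, in capitals.
HOXA11, chr7:27185183-27185482, minus strand: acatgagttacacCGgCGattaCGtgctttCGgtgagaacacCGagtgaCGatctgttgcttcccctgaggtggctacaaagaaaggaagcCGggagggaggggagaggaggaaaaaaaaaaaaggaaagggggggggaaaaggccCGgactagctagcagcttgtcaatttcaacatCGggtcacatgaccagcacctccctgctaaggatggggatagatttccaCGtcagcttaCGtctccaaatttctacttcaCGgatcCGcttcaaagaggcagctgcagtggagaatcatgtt
HOXD1, chr2:176188418-176188717, plus strand: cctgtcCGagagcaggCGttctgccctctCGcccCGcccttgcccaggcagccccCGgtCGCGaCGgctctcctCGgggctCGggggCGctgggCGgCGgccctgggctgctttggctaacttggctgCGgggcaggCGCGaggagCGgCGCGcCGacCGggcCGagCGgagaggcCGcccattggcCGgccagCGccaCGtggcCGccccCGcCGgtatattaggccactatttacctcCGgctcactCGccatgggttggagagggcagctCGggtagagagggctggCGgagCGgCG
HOXA13, chr7:27200042-27200341, minus strand: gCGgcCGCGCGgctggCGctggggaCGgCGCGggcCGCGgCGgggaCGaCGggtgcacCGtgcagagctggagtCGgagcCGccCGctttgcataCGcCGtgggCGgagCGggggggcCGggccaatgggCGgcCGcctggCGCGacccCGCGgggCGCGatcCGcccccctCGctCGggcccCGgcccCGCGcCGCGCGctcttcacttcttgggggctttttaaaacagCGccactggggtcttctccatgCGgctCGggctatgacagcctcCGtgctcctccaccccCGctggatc
The HOXA11 window held 13 CpG dinucleotides, that of HOXD1 held 36 and that of HOXA13 held 44, beside a median of 14 over all 35116 RefSeq promoter windows and 23 over the 25 windows that matched 18 HOX genes. The windows of HOXA11 and of its antisense RNA HOXA11-AS, which start on opposite strands, shared 275 of 300 bases. Searched on both strands, the TATA box TATAAA was in 11.5% of all windows and in those of HOXA3, HOXA9, HOXA10 and HOXD13. The PBX-HOX motif TGATTNAT was in 2.82% of all windows and in those of HOXA2 and HOXD11, and the homeodomain core TAATTA in 4.84% and in those of HOXD3 and HOXD11. None of the 3 printed windows held any of them. The retinoic acid receptor direct repeat was in only 2 of the 35116 windows and in 0 of the 25 HOX windows. A motif that rare would be absent from nearly any 25 windows, so its absence says nothing about the HOX genes.

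Among the other HOXA genes, HOXA2, a gene of the hindbrain and the branchial arches, had the lowest estimate. It had 116 counts in parental 1, 106 in resistant 1 and 65 in resistant 2, which is 8.26, 6.49 and 3.72 CPM, and the log2 fold change of -0.69 ± 0.51 did not pass the test (edgeR adjusted p = 0.773). HOXA9 had 24.7, 26.4 and 40.3 CPM and HOXA10, active in the uterus and the blood, 11.5, 13.2 and 16.2 CPM. Their estimates were 0.44 ± 0.40 and 0.37 ± 0.42. HOXA3 and HOXA5 had estimates of 0.01 ± 0.36 and -0.03 ± 0.39, with 95% intervals of -0.79 to 0.80 and -0.90 to 0.85, so changes of that size could not be told from 0 even in well-covered genes.

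In HOXB the estimates were highest for HOXB2, at the anterior end, and for the posterior neighbours HOXB8 and HOXB9. HOXB9, a gene of the thoracic region, had 506, 781 and 1530 counts, or 36.0, 47.8 and 87.7 CPM, and a log2 fold change of 0.92 ± 0.44 (edgeR adjusted p = 0.558). HOXB8 had 8.61, 10.8 and 21.0 CPM and an estimate of 0.90 ± 0.50. In both genes most of the difference was carried by resistant 2. On the authors' means, which cover other clones too, HOXB9 had 705 and 795 and HOXB8 had 180 and 163, so that HOXB8 was higher in the labelled resistant libraries and lower in the resistant mean. HOXB2 had 0.570, 1.04 and 2.98 CPM and 1.82 ± 0.92, and its means were 15.6 and 25.8. HOXB3, HOXB4, HOXB5 and HOXB13 had estimates between -0.06 and 0.05.

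In HOXD, HOXD8 had 3.13, 3.86 and 5.79 CPM and a log2 fold change of 0.63 ± 0.57, with means of 43.6 and 67.6. HOXD13 had 11.3, 6.49 and 11.8 CPM, so parental 1 and resistant 2 were alike and resistant 1 stood below both. Its estimate was -0.30 ± 0.49 and its means were 214 and 139. HOXD10 had the narrowest spread, at 33.2, 34.8 and 34.6 CPM, and an estimate of 0.07 ± 0.35 (95% interval -0.72 to 0.86).

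On the authors' group means, 27 HOX genes averaged at least 10 normalized counts. Their median log2 ratio, resistant over parental with a pseudocount of 1, was 0.09, beside 0.01 over 14630 genes, and ran from -0.62 (HOXD13) to 1.04 (HOXD1). The means of 4 of the 27 lay 1.5-fold or further apart (HOXD1, HOXB2 and HOXD8 higher, HOXD13 lower), against 18.6% of all genes. Summed over a cluster, the means went from 2172 to 2466 in HOXA, from 4221 to 4272 in HOXB, from 9.36 to 4.97 in HOXC and from 1713 to 1650 in HOXD.

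In summed level, the HOXA, HOXB and HOXD genes differed more between the 2 resistant libraries than between their mean and the parental library. Summed HOXB was 273 CPM in parental 1, 261 in resistant 1 and 402 in resistant 2. HOXA summed to 156, 153 and 180 CPM and HOXD to 109, 99.9 and 127 CPM. In each of these clusters resistant 1 lay slightly below the parental library and resistant 2 above it. Resistant 2 was above resistant 1 in 22 of the 27 tested genes (48.6% of all genes): in 9 of 9 HOXB genes, 7 of 8 HOXD genes and 6 of 10 HOXA genes. Genes whose spans overlap, as described above, are not separate measurements. The antisense RNA HOXB-AS3 covers the whole spans of HOXB4, HOXB5 and HOXB6, and reads cannot be told apart there. HOXB-AS3 itself had 22.4, 14.9 and 24.8 CPM in parental 1, resistant 1 and resistant 2. The median log2 ratio of resistant 2 over resistant 1 was 0.82 in HOXB, 0.49 in HOXD and 0.30 in HOXA, beside -0.02 over all genes, whose quartiles were -0.36 and 0.38. With 1 library each, this compares those libraries and has no replicate check.

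**Figure D3:**
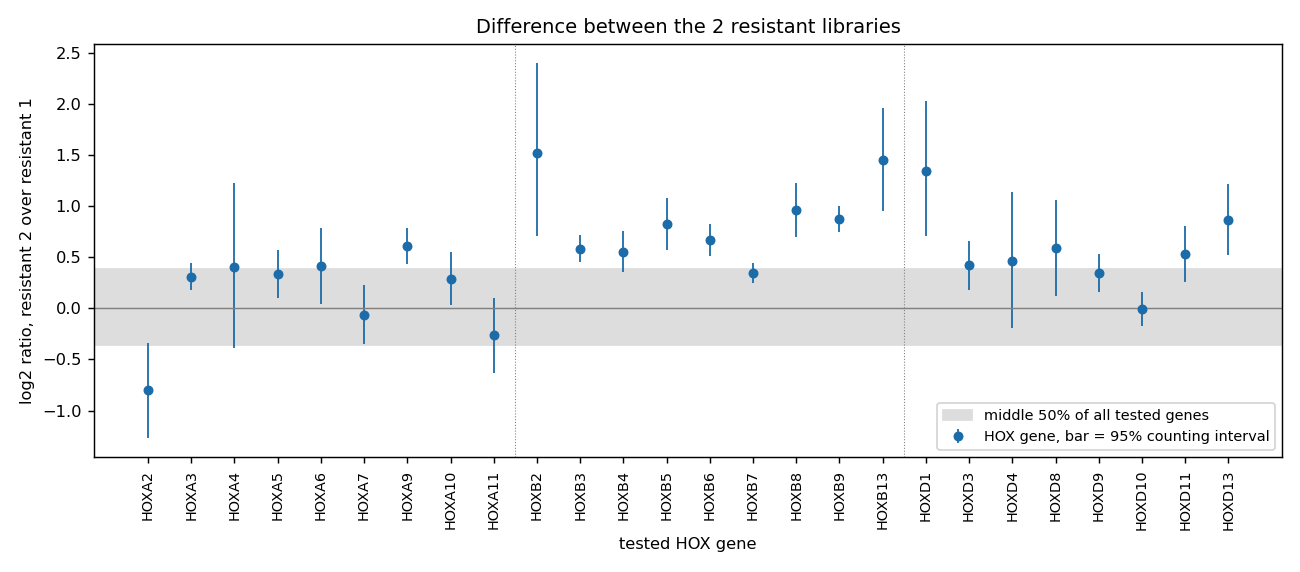
Log2 ratio of resistant 2 over resistant 1 for 26 of the 27 tested HOX genes (points, with 95% counting intervals), with the middle 50% of all tested genes as a grey band. Each HOXB point lies above 0 and all but that of HOXB7 lie above the band, whereas HOXA2 lies below it.

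Individual genes showed how far this went. HOXB13 had 46 counts in resistant 1 and 134 in resistant 2, a ratio of 2.72 (counting interval 1.94 to 3.90), and HOXB2 had a ratio of 2.86 (1.63 to 5.28). HOXB8 and HOXB9 had ratios of 1.94 and 1.83, and HOXB7 the smallest of the cluster, 1.27 (1.18 to 1.36). HOXA2 went the other way, with a ratio of 0.574 (0.415 to 0.789). HOXD10 had 0.993 (0.884 to 1.12). By paralogue group, the genes numbered 9 to 13 summed to 164, 176 and 253 CPM in parental 1, resistant 1 and resistant 2, those numbered 4 to 8 to 220, 205 and 286, and those numbered 1 to 3 to 155, 132 and 170.

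Non-coding RNAs of the clusters were counted beside the protein-coding genes: 28 were in the table and 12 were tested. EdgeR and DESeq2 called 0, and 1 had an unadjusted p under 0.05 in edgeR, against 9.70% of all tested genes. That one was HOXA11-AS, read from the opposite strand of HOXA11, with 14, 108 and 70 counts (0.997, 6.61 and 4.01 CPM). Both resistant libraries were above the parental one, with a log2 fold change of 2.41 ± 0.67 (edgeR adjusted p = 0.196). The authors' means were 47.0 and 73.0, a log2 ratio of 0.63. Since its span overlaps that of HOXA11, whose counts moved in the same direction, the 2 genes are not independent measurements. Named for their position, HOTAIR, the antisense RNA of the HOXC cluster, had 1, 0 and 0 counts, and HOTTIP, beside HOXA13, had 0, 0 and 1, so both lay at the floor with their neighbours. The RNAs near the anterior HOXA genes were well covered, with 298, 290 and 326 counts of HOTAIRM1 and 234, 247 and 173 of HOXA-AS2. HOXD-AS1, which overlaps 16.0% of the span of HOXD1 on the opposite strand, had 430, 491 and 649 counts and an estimate of 0.14 ± 0.37.

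None of the cofactors of HOX proteins passed the adjusted threshold in the edgeR test with its count filter. Of 9 listed genes 8 were tested, edgeR called 0, DESeq2 called 1 (MEIS2), and 2 had an unadjusted p under 0.05 in edgeR, both with lower levels in the resistant libraries. Over all tested genes, DESeq2 called 1.57%, and 9.70% had an unadjusted p under 0.05 in edgeR. MEIS2 had 99.9 CPM in parental 1 against 39.4 and 33.4 in the resistant libraries, a log2 fold change of -1.45 ± 0.34 (edgeR adjusted p = 0.106). The resistant libraries lay close together and well under the parental one, and the authors' means were 1136 and 690. MEIS3 had 3.99, 1.41 and 2.81 CPM. The median estimate of the list was -0.44.

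**Figure D4:**
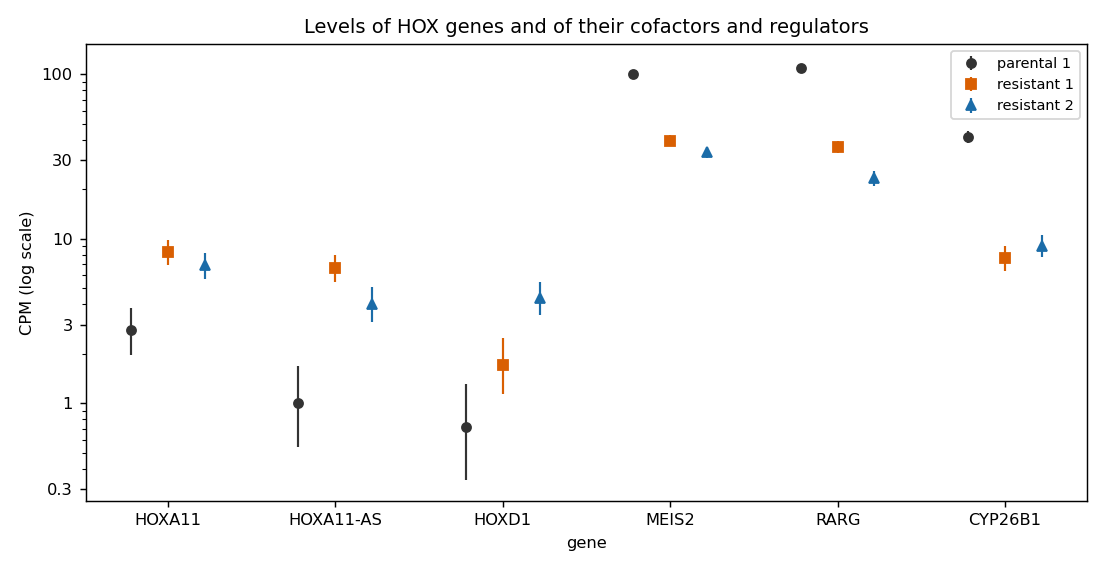
Level in CPM (log scale) of HOXA11, HOXA11-AS, HOXD1 and of MEIS2, RARG and CYP26B1 in the 3 libraries, with exact Poisson 95% intervals. The first 3 genes lie lowest in parental 1 and the last 3 highest; of the 6, only CYP26B1 was called by edgeR.

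Of 16 listed upstream regulators, which are CDX factors, CTCF and the retinoic acid pathway, 13 were in the table and 10 were tested. Of these 1 was called by edgeR, against 0.876% of all tested genes: CYP26B1, an enzyme that degrades retinoic acid. It had 581 counts in parental 1, 124 in resistant 1 and 158 in resistant 2, or 41.4, 7.59 and 9.05 CPM. The log2 fold change was -2.30 ± 0.37 (edgeR adjusted p = 0.0219), and the authors' means were 517 and 218. Among those named after their values were seen, RARG, a retinoic acid receptor, had 108, 36.1 and 23.2 CPM (-1.86 ± 0.37, adjusted p = 0.0540), and ALDH1A3, which makes retinoic acid, had 958, 381 and 611 CPM (-0.94 ± 0.39, adjusted p = 0.459). Under the 5 alternative settings the adjusted p ran from 9.48e-06 to 0.0290 for CYP26B1 and from 9.71e-05 to 0.0482 for RARG, so RARG was called under each of them. These settings reuse the same 3 libraries. On the authors' means, which cover other clones too, the log2 ratio was -1.24 for CYP26B1 and -1.33 for RARG. The list as a whole had 4 estimates above 0 and 6 below, with a median of -0.47, and RARA, another retinoic acid receptor that was not called, had 58.0, 87.9 and 92.5 CPM (0.65 ± 0.36). RARG lies at chr12:53604354-53626764 on hg19, within 5 Mb of HOXC, and is among the genes around that cluster described below. Whether its lower level is part of that local difference was not tested.

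Among the chromatin regulators of HOX clusters, edgeR and DESeq2 called 0 of 22 Polycomb genes, and 0 had an unadjusted p under 0.05, with a median estimate of 0.04. The widest estimates were those of CBX7 (6.34, 8.51 and 15.0 CPM, 0.90 ± 0.51), AEBP2 (-0.61 ± 0.36) and PCGF2 (0.51 ± 0.38). Of 16 genes of Trithorax-type and other activating complexes 15 were in the table, and edgeR and DESeq2 called 0. An unadjusted p under 0.05 in edgeR was found for 2 of the 15, against 9.70% of all tested genes. These were MLLT3, a partner of the elongation machinery, at 32.1, 12.6 and 6.93 CPM (-1.71 ± 0.43, adjusted p = 0.141), and PSIP1, a chromatin reader that binds the MLL complex, at 164, 69.4 and 71.3 CPM (-1.21 ± 0.34, adjusted p = 0.196). AFF1 had 35.9, 67.4 and 54.5 CPM (0.77 ± 0.37).

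The genes around the clusters were read as a local background. Among 24 flanking protein-coding genes (3 on each side of each cluster) 18 were tested and 0 were called by edgeR or DESeq2. At an unadjusted p under 0.05 in edgeR there were 2, against 9.70% of all tested genes. These were CALCOCO2, beside HOXB, with 24.6, 45.6 and 46.6 CPM, and HNRNPA1, beside HOXC, with 2208, 1045 and 771 CPM. EVX1 and EVX2, the homeobox genes next to HOXA13 and HOXD13, had at most 2 counts in any library. Within 5 Mb on each side, other tested protein-coding genes had a median log2 fold change of 0.15 around HOXA (36 genes), 0.15 around HOXB (105 genes) and 0.03 around HOXD (44 genes). Around HOXC the median was -0.55 over 156 genes, of which 133 had estimates below 0 (7462 of 15643 over all tested genes) and 5 were called lower (0.582% over all tested genes), and the authors' means gave -0.36 there. Resistant 2 over resistant 1 had a median of 0.06 around HOXB, whereas the HOXB genes themselves had 0.82.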

How the data were processed

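Poly(A) RNA of 3 labelled libraries of 5637 cells (1 parental, 2 gemcitabine-resistant) was analysed. The authors deposited 1 table of 29960 genes with read counts per library, which are whole numbers and not normalized. They also deposited group means of normalized counts, a signal scaled by size factors, which were used as the authors' values with no SD and which cover other clones beside the labelled libraries (KRT5 had a parental mean of 11544 but 3829 counts in the labelled parental library). The submitters' processing notes name hg19 and CASAVA 1.8. The aligner, counter and annotation are not given in the sources used here. Another 6 per-library columns carry no sample label and were not used, nor were 3 FPKM columns or the authors' fold changes and p-values.

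Counts were tested with edgeR 4.0.16 in R 4.3.3 (filterByExpr, TMM, quasi-likelihood F test of group, Benjamini-Hochberg over 15643 genes, threshold 0.05; biological coefficient of variation 0.281). DESeq2 1.42.0, RLE factors, library totals and other filters were alternatives. The edgeR fit was also run on simulated counts with large known changes in well-covered genes. That run does not show how the fit performs for smaller changes or sparse genes. P-values set the difference between groups against a spread estimated from the 2 resistant libraries and shared across genes. The 1 parental library adds nothing to that spread. Ratios of 2 counts carry 95% conditional binomial intervals. Promoters came from RefSeq tables (GRCh38.p14). KMT2A, KMT2C and KMT2D were matched by identifier, and KMT2B, CDX1, CDX4, CYP26C1 and PECAM1 were not analysed here.

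The HOX genes, and the lists of cofactors, regulators, neighbours and markers, were chosen with earlier results of these data known. Every HOX gene could be named. From each list the called genes could be named or, with none called, the 3 with the largest absolute estimates. Non-coding RNAs above 10 counts in a library could be named, and flanking genes by position. Not all of these were named. HOTAIR, HOTTIP, some markers and some upstream regulators were named outside this rule. Single values of 1 HOX gene and 1 cofactor are not reported here.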

Additional observations from a re-analysis of the deposited data

How the results depend on the processing

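The HOX genes gave 0 calls under RLE factors, library totals, DESeq2, no filter and a minimum of 10 counts. Over all genes the count of calls moved from 137 to 235 with RLE factors (96 higher), 228 with library totals (100 higher), 245 with DESeq2 (120 higher), 534 with no filter (273 higher) and 81 with a minimum of 10 counts (33 higher), beside 46 higher of 137. Of the cofactors, DESeq2 called 1 (MEIS2) and no filter 2. With no filter, 1 activator (MLLT3), 1 non-coding RNA (HOXA11-AS) and 1 flanking gene (HNRNPA1) were called. Each of the 5 settings called 2 upstream regulators, CYP26B1 and RARG, with RARG at an adjusted p of 0.0194 (RLE), 0.0269 (totals), 0.00488 (DESeq2), 9.71e-05 (no filter) and 0.0482 (minimum of 10). The cause was not tested.

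Estimates near 0 changed sign: HOXA5 to 0.029 and HOXB13 to 0.033 with library totals, HOXB13 to 0.0038 with a minimum of 10 counts, and HOXD11 to -0.0024 with RLE factors, -0.0024 with DESeq2 and -0.0068 with no filter. On the authors' means the summed HOXC ratio was -0.91 on the log2 scale in place of -2.10. Those means, which cover other clones too, also gave smaller ratios for MEIS2 (-0.72 in place of -1.45), MLLT3 (-1.07 in place of -1.71) and PSIP1 (-0.82 in place of -1.21). For CYP26B1 the ratio was -1.24 in place of -2.30 and for RARG -1.33 in place of -1.86. That of HOXA3 was larger, 0.23 in place of 0.01. Within 2 Mb the local median was -0.049 around HOXA and -0.075 around HOXD, and within 10 Mb 0.20 around HOXA.

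Leaving out 1 resistant library gave values with no test. The summed log2 ratio then ran from -0.03 to 0.21 in HOXA, -0.07 to 0.56 in HOXB, -2.48 to -1.80 in HOXC and -0.13 to 0.22 in HOXD, the lower value without resistant 2 in each but HOXC, so in HOXA, HOXB and HOXD the sign rested on resistant 2. Leaving out the parental library leaves no contrast. No paired analysis was possible because the groups share only the replicate number 1. Depth limits the HOXC genes, HOXA13, HOXB1 and HOXD12, which failed the main filter. With no filter 32 HOX genes were tested and 4 had an unadjusted p under 0.05 in edgeR, beside 2149 of 26434 over all genes. The HOX genes that this setting adds are among those limited by depth.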
